A study of Mus musculus with 9 samples.

Results

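The circular RNA and the linear mRNA made from 1 gene, Slc45a4, were knocked down separately in the embryonic mouse cortex, and the transcriptomes of the knocked-down cells were set against each other. The comparison took in 6 of the 9 libraries of the series, 3 in which the circular RNA circSlc45a4 was targeted and 3 in which the linear Slc45a4 mRNA was targeted, and every gene that passed a low-count filter in them, 17163 of 53379 gene IDs. All animals were C57BL/6 embryos that were electroporated in utero with short hairpin RNAs (shRNAs) on E13.5, counted in embryonic days, and collected on E15.5. The circSlc45a4 knockdown used a mix of 3 shRNAs and the Slc45a4 mRNA knockdown a mix of 2, with 3 biological replicates per mix, so hairpins within a mix cannot be told apart. Electroporated cortical cells were sorted by their GFP signal and their polyA RNA was sequenced. How many embryos made up a replicate is not stated by the labels. The 3 scramble libraries, from embryos that received 1 scrambled sequence, did not enter any test, and their levels are given beside some genes as a description. Levels are in CPM, counts scaled to a common library size, here with TMM factors that correct for composition. A gene is called where the Benjamini-Hochberg adjusted p of edgeR's quasi-likelihood test was under 0.05. Log2 fold changes are the circSlc45a4 knockdown over the Slc45a4 mRNA knockdown, with their SE, so values above 0 are higher in the circSlc45a4 knockdown.

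A circular RNA is made by back-splicing, in which the end of an exon is joined to the start of the same or an earlier exon, so the product has no free ends and no polyA tail. In the embryonic cortex, apical progenitors (radial glia) divide at the ventricle, give rise to basal progenitors and neurons, and leave the cell cycle as neurons form. Before division, E2F factors switch on the genes of DNA replication, and the later G2 and M phase genes are switched on through FOXM1, MYBL2 and the MuvB complex, which binds promoter elements called CHR.

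Total counts ranged from 35307378 to 45469298 in the 6 libraries. The first principal component (51.9% of the variance) separated the 2 knockdowns, and the second (15.7%) set Slc45a4 mRNA knockdown replicate 1 apart. Genes that differ by sex varied between libraries. Xist, transcribed from the inactive X chromosome, had 633, 264 and 427 CPM across circSlc45a4 knockdown replicates 1 to 3 and 1548, 636 and 0.194 CPM across those of the Slc45a4 mRNA knockdown. The Y-linked Ddx3y was at 19.9, 37.0 and 28.4 CPM and 0, 21.9 and 39.0 CPM. Newborn and migrating projection neuron genes, the main cell type of this stage, summed to 18850 to 19850 CPM and 16430 to 19120 CPM. Ventral inhibitory neuron genes summed to 62.0 to 83.2 CPM and 65.3 to 77.9 CPM, and 6 of the 18 listed genes (Dlx5, Dlx6, Slc32a1, Sst, Gsx2 and Nkx2-1) were too low to test.

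The targeted gene followed the labels. Slc45a4 (ENSMUSG00000079020.9, chromosome 15, 73577424 to 73645762) encodes a member of the SLC45 family of solute carriers and lies on the minus strand of GRCm38. The linear RNA was read at 25.3, 25.2 and 24.6 CPM with circSlc45a4 knocked down and at 13.2, 18.5 and 17.4 CPM with Slc45a4 mRNA knocked down. The groups did not overlap, and replicate 1 of the Slc45a4 mRNA knockdown was the lowest. The transcript was 1.53 times as high in the circSlc45a4 knockdown (0.61 ± 0.13 SE, adjusted p = 0.00583). The 3 scramble libraries, at 31.4, 33.7 and 34.0 CPM, lay above all 6 knockdown libraries. Because polyA selection does not retain a circular RNA, the level of circSlc45a4 itself was not read.

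Over all genes tested, 4219 (24.6%) were called, 2221 higher (12.9%) and 1998 lower (11.6%) in the circSlc45a4 knockdown. More than 2-fold differences were seen in 462 of the higher and 448 of the lower genes. The groups did not overlap in 7028 genes (40.9%). Higher genes made up 52.6% of the calls, and 42.1% with upper-quartile scaling. Without circSlc45a4 knockdown replicate 1 there were 2601 calls, 1411 higher and 1190 lower, and without its replicate 2 there were 1289 lower calls. The scramble mean lay between the 2 knockdown means for 59.0% of the higher and 64.5% of the lower genes. It lay below both for 27.1% of the higher genes and above both for 26.2% of the lower genes. These positions are a description, since the scramble libraries were not part of the fit.

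**Figure D1:**
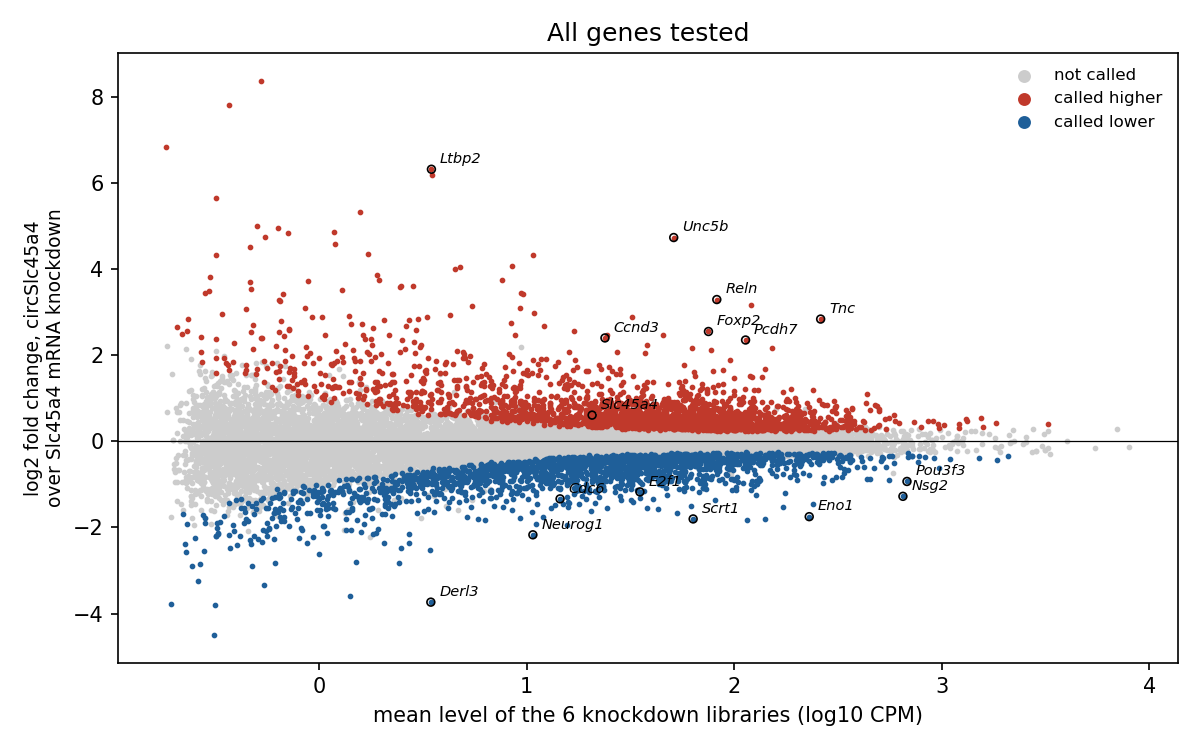
Each point is 1 of the 17163 genes tested, placed by its mean level in the 6 knockdown libraries (log10 CPM) and its log2 fold change. Called genes are red (2221 higher in the circSlc45a4 knockdown) or blue (1998 lower), other genes are grey, and 16 genes named in the text are ringed.

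Genes of the dividing cell formed the most one-sided group. Of 49 S phase and DNA replication genes, 44 (89.8%, against 11.6% of all genes) were lower in the circSlc45a4 knockdown, and of 59 G2 and M phase genes 55 (93.2%) were lower and 0 higher. Their median log2 fold changes were -0.75 and -0.80, where the median of all genes was -0.02. The 2 knockdowns did not overlap for 47 of the S phase genes and 55 of the G2 and M phase genes, against 40.9% of all genes. No G2 or M phase gene was higher in limma-voom or DESeq2 either, and 0 were at an unadjusted p under 0.05. The S phase genes without a call were E2f2, Pold2, Pole and Rfc1, and the G2 and M phase genes without one were Bub3, Ccnf, Cenpe and Ube2c, named here after their values were seen.

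E2f1, a transcription factor that starts the S phase programme (ENSMUSG00000027490.17, chromosome 2, 154559407 to 154569892), was at 20.8, 20.9 and 23.1 CPM with circSlc45a4 knocked down and at 49.7, 50.1 and 46.4 CPM with Slc45a4 mRNA knocked down. The groups stood far apart, with replicates close together in each, and the log2 fold change was -1.17 ± 0.10 (SE, adjusted p = 1.55e-05). Cdc6, which loads the replicative helicase at origins, was at 8.60, 7.41 and 8.65 against 24.7, 19.1 and 18.6 CPM, a difference of -1.33 ± 0.15 (adjusted p = 9.25e-05). Lig1, the ligase that joins Okazaki fragments, was at 42.3, 41.1 and 52.3 against 102, 90.5 and 96.8 CPM (-1.09 ± 0.11). Uhrf1, which carries DNA methylation over to the new strand, was at 43.2, 45.4 and 50.2 against 110.0, 89.9 and 95.3 CPM (-1.09 ± 0.10). In all of these the highest circSlc45a4 knockdown library lay below the lowest Slc45a4 mRNA knockdown library. Members that the naming rule did not choose were lower too, among them the ribonucleotide reductase subunit Rrm2 (-1.26 ± 0.15), the sliding clamp Pcna (-0.84 ± 0.12) and the helicase subunit Mcm5 (-0.90 ± 0.12). Cyclin E1 (Ccne1) was the single S phase gene that was higher, at 10.2, 12.2 and 10.8 against 4.65, 5.55 and 6.97 CPM (0.94 ± 0.18, adjusted p = 0.0023). Its partner gene Ccne2, cyclin E2, was lower, at 10.7, 9.70 and 12.3 against 36.2, 22.3 and 24.6 CPM (-1.34 ± 0.18, adjusted p = 2.82e-04), so the 2 cyclins E went opposite ways. Ung, a uracil DNA glycosylase of replicating cells and among the 15 largest falls, was at 3.41, 5.12 and 5.51 against 21.4, 14.1 and 17.5 CPM (-1.92 ± 0.21).

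Cdc25b, a phosphatase that activates Cdk1 at mitotic entry (ENSMUSG00000027330.16, chromosome 2, 131186949 to 131198497), was at 21.4, 19.8 and 19.4 CPM with circSlc45a4 knocked down and at 51.9, 49.1 and 50.4 CPM with Slc45a4 mRNA knocked down. This was a 2.50-fold difference with almost no spread within either group (-1.32 ± 0.10 SE, adjusted p = 7.33e-06). Foxm1, the transcription factor of the G2 and M phase genes, was at 35.5, 32.4 and 35.4 against 82.1, 71.0 and 71.0 CPM (-1.12 ± 0.10, adjusted p = 1.91e-05). The condensin subunit Ncapd2 was at 139.9, 135 and 149.96 against 280.2, 259.7 and 244 CPM (-0.89 ± 0.09), and the kinetochore subunit Spc25 at 14.03, 15.8 and 17.7 against 52.5, 36.7 and 33.6 CPM (-1.37 ± 0.16). None of these 4 genes overlapped between the knockdowns, and Spc25 was highest in Slc45a4 mRNA knockdown replicate 1.

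**Figure D2:**
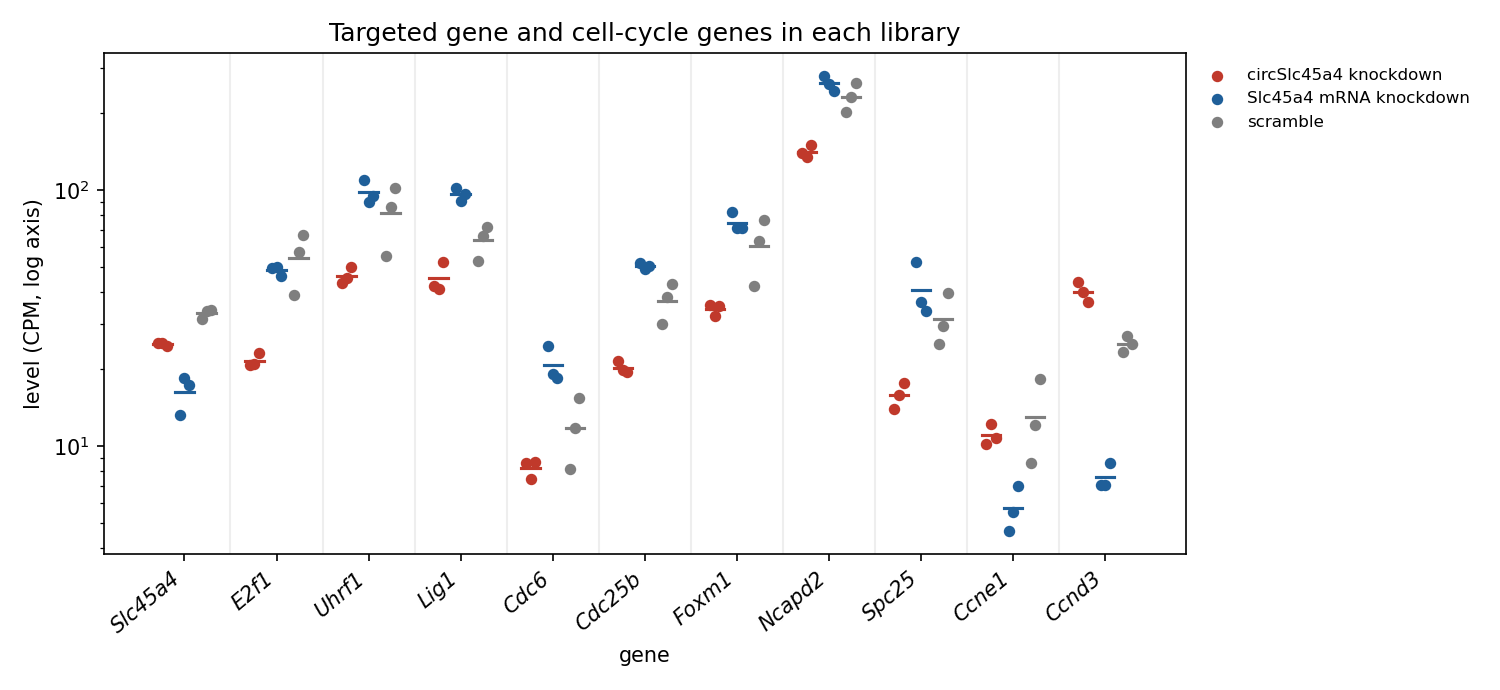
Levels (CPM, log axis) of Slc45a4 and 10 cell-cycle genes, with 1 point per library and a bar at the mean of 3. The 8 S phase and G2 or M phase genes from E2f1 to Spc25 are lower in every circSlc45a4 knockdown library (red) than in any Slc45a4 mRNA knockdown library (blue), and Ccne1 and Ccnd3 are higher, with scramble in grey.

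Slc45a4 mRNA knockdown replicate 1 had the highest cell-cycle levels of all 9 libraries. G2 and M phase genes summed to 2443, 2706 and 2716 CPM with circSlc45a4 knocked down and to 5530, 3963 and 3965 CPM with Slc45a4 mRNA knocked down, so replicate 1 of the latter stood above its other 2 replicates. S phase genes summed to 1683, 1752 and 1999 CPM and 3389, 2753 and 2778 CPM. Without that replicate, which also had the highest Xist level and no Ddx3y reads, 40 S phase and 49 G2 and M phase genes were lower, at medians of -0.64 and -0.58. With the Xist level as a covariate 44 and 55 were lower. Scramble spanned most of the range between the knockdowns, at 1952, 2487 and 2830 CPM for the S phase genes and 2538, 3317 and 4165 CPM for the G2 and M phase genes. In RNA from a population of sorted cells, fewer cycling cells and less of these transcripts per cycling cell cannot be told apart.

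**Figure D3:**
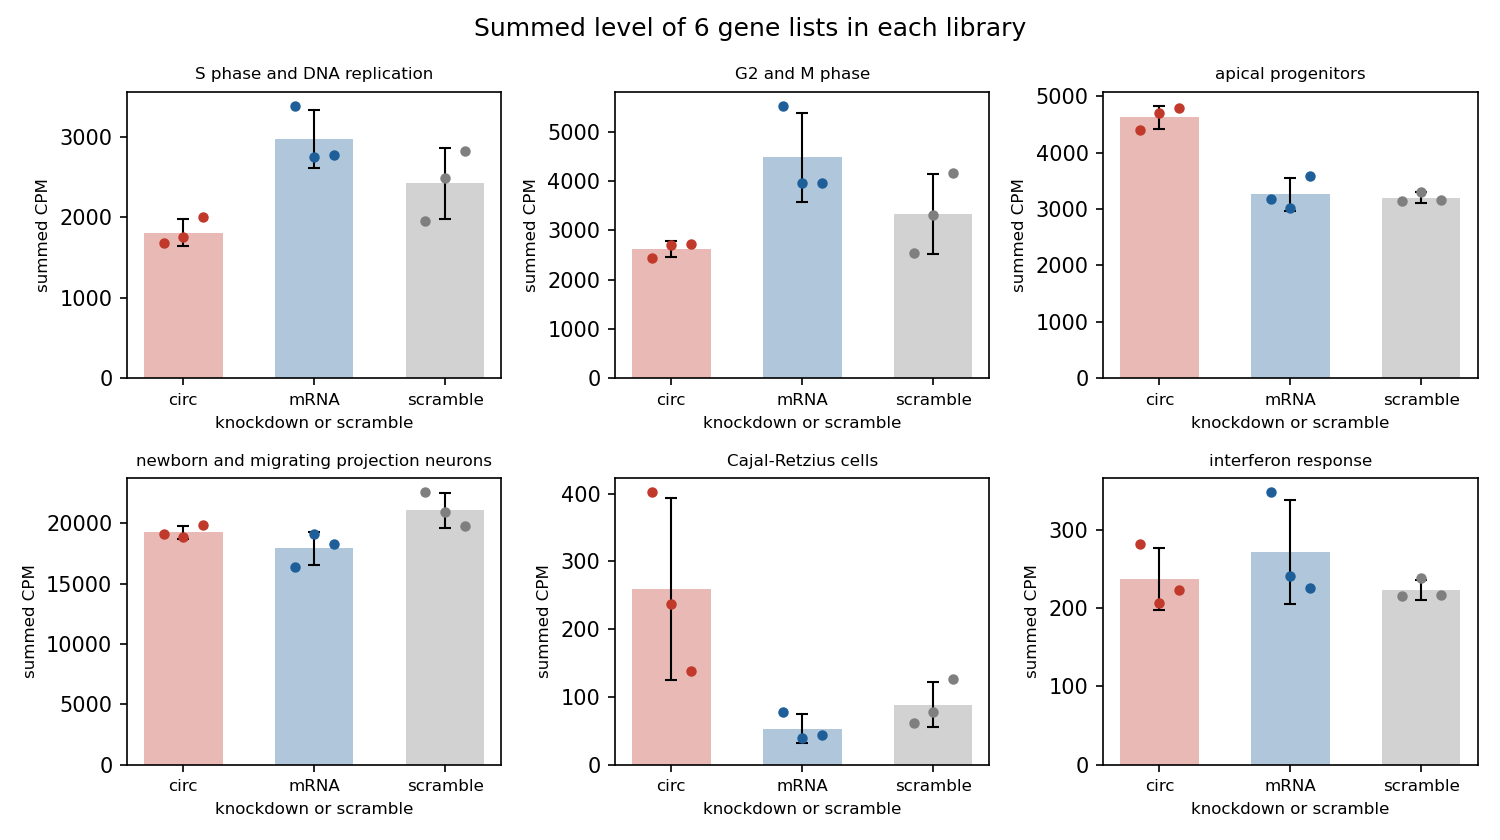
Summed CPM of all listed members, tested or not, of 6 gene lists, with bars at the mean of 3 libraries, error bars of 1 SD and 1 point per library. The S phase and the G2 and M phase sums are lower, and the apical progenitor sums higher, in each circSlc45a4 knockdown library than in each Slc45a4 mRNA knockdown library, and Slc45a4 mRNA knockdown replicate 1 (first blue point) has the highest cell-cycle sums.

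The promoters of the 8 S phase and G2 or M phase genes described above were searched for the letters of elements known from cell-cycle genes, since so many genes of these lists differed together. The E2F letters were TTTGGCGC, TTTCCCGC, TTTGGCGG or TTTCCCGG, the CHR letters TTTGAA and the CCAAT box CCAAT, on both strands, in RefSeq windows (GRCm38.p6) from 250 bases before to 50 after an annotated start. Uhrf1 had 2 windows and Lig1 3, E2f1, Cdc6, Cdc25b, Ncapd2 and Spc25 had 1, and Foxm1 was not matched. Shown are 4 windows that hold E2F or CHR letters, 5′ to 3′, up to 30 bases after the start, with matches to any of the 3 elements in capitals. Cdc6 lies at chr11:98907901-98908180, plus strand, Lig1 (its second window) at chr7:13278576-13278855, plus strand, Ncapd2 at chr6:125191557-125191836, minus strand and Spc25 at chr2:69206184-69206463, minus strand.
Cdc6: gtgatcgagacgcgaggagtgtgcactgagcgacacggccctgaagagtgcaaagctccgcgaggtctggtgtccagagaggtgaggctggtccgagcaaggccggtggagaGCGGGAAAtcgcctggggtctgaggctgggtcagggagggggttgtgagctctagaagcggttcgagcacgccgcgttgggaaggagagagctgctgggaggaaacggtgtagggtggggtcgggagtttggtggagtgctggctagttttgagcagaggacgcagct
Lig1: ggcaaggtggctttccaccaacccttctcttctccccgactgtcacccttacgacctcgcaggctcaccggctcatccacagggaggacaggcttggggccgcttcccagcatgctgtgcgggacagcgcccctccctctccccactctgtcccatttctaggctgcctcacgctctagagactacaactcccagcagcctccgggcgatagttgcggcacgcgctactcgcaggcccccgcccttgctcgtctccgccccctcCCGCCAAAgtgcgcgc
Ncapd2: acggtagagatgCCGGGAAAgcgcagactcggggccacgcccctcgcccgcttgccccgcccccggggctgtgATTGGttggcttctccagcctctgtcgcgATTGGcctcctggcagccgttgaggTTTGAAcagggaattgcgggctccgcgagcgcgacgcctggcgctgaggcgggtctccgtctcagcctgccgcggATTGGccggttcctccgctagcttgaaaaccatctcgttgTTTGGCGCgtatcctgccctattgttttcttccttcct
Spc25: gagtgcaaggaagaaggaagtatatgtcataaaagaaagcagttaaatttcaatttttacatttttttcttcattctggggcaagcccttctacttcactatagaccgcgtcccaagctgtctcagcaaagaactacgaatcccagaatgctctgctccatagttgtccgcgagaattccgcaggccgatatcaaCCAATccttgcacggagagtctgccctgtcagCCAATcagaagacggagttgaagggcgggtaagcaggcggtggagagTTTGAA
The window of Cdc6 held E2F letters 138 bases before the start, and that of Lig1 held them 15 bases after it. In Ncapd2 there were 2 E2F matches, 3 CCAAT matches and 1 CHR match, and in Spc25 there were 2 CCAAT matches followed by 1 CHR match. Cdc25b held 1 CCAAT match, the windows of Uhrf1 held 3 and 2, and the E2f1 window held none of the 3. The E2f1 window (chr2:154569377-154569676, minus strand) lies inside the gene span given above. The Cdc6 window likewise lies inside its gene (98907801 to 98923940). For these 2 genes the bases before the gene span were not searched. Over the G2 and M phase list, 51 of 59 genes had 55 windows, of which 72.7% held CHR letters and 76.4% a CCAAT box. Of all 32851 windows in the table, 17.9% and 37.4% did. E2F letters stood in 10.9% of the G2 and M phase windows and in 3.32% of all. The windows of the table include those of genes not tested here. Under 80% of genes had a window among all genes tested (63.2%), the S phase list (77.6%), the called higher genes (73.6%) and the called lower genes (70.9%). The same searches are void for these sets. So are those of the interferon list (75.8%) for GAAANNGAA and of the Notch list (77.4%) for GTGGGAA. A match of letters is a description and does not show that a factor binds there.

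Upstream of S phase, the genes that control entry into it went both ways. Ccnd3, cyclin D3, was at 43.8, 40.02 and 36.7 CPM with circSlc45a4 knocked down and at 7.05, 7.08 and 8.57 CPM with Slc45a4 mRNA knocked down. It was 5.31 times as high in the former (2.41 ± 0.13 SE, adjusted p = 8.36e-07), and scramble, at 23.3, 26.8 and 25.1 CPM, lay between the 2. Ccnd2, cyclin D2, the most abundant D cyclin of the list, was lower instead, at 276, 314 and 316 against 527, 352 and 379.7 CPM (-0.47 ± 0.14, adjusted p = 0.0233). Ccnd2 lost its call without circSlc45a4 knockdown replicate 1 or 2 (adjusted p = 0.0955 and 0.062). Of 15 G1 control genes 2 (13.3%, against 12.9% of all genes) were higher and 5 (33.3%, against 11.6%) lower. The lower ones included the phosphatase Cdc25a (-0.68 ± 0.12), the kinase Cdk2 (-0.66 ± 0.12) and the factor E2f5 (-0.73 ± 0.17). The other higher gene was E2f4 (0.37 ± 0.09), a repressor E2F that lost its call without circSlc45a4 knockdown replicate 1 (0.31, adjusted p = 0.0774) and when tested for a change beyond 1.2-fold (adjusted p = 0.216). Without circSlc45a4 knockdown replicate 1 or 2, 3 G1 control genes were lower in either case. Of 10 tested inhibitors of the cell cycle 1 (10%, against 12.9% of all genes) was higher and 1 (10%, against 11.6%) lower, at a median of -0.01. These shares are no larger than those of all genes. Btg2, an antiproliferative gene of neurogenic divisions, was higher (271, 272 and 209 against 164, 137 and 145 CPM, 0.75 ± 0.11, adjusted p = 6.87e-04). Cdkn2c, an inhibitor of the cyclin D kinases, was lower (7.42, 7.39 and 9.97 against 15.9, 14.9 and 14.4 CPM, -0.86 ± 0.15, adjusted p = 0.00168).

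The transcripts of replication-dependent histone genes generally lack a polyA tail. Of 20 such genes tested, 7 (35%, against 12.9% of all genes) were higher (10 genes in DESeq2), at a median of 0.61. None was lower in edgeR, limma-voom or DESeq2, with 0 at an unadjusted p under 0.05. The linker histone gene Hist1h1c was at 41.3, 23.1 and 13.7 against 5.04, 7.86 and 5.39 CPM (2.09 ± 0.34, adjusted p = 9.65e-04). The reads kept after polyA selection do not give the histone level, and whether they came from transcripts with a tail was not tested. Reads can also be split between near-identical histone copies. Without circSlc45a4 knockdown replicate 2 or Slc45a4 mRNA knockdown replicate 3 the count was 4.

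Although genes of division were lower, markers of the apical progenitors that divide were mostly higher in the circSlc45a4 knockdown. Of 33 apical progenitor genes 18 (54.5%, against 12.9% of all genes) were higher and 2 lower, at a median of 0.42. Tnc, tenascin C, a matrix protein of the ventricular zone and outer radial glia (ENSMUSG00000028364.15, chromosome 4, 63959785 to 64047015), was at 456, 449 and 471 CPM with circSlc45a4 knocked down and at 53.5, 52.3 and 85.3 CPM with Slc45a4 mRNA knocked down. The 3 circSlc45a4 libraries were nearly equal and 7.20 times as high as the others (2.85 ± 0.16 SE, adjusted p = 8.36e-07), while scramble stood at 41.2, 48.2 and 22.4 CPM. Ttyh1, a membrane protein of neural progenitors, was at 144, 148 and 128 against 74.1, 67.9 and 70.3 CPM (0.99 ± 0.09, adjusted p = 2.56e-05). Mfge8, a secreted glycoprotein of radial glia, was at 75.5, 82.0 and 76.8 against 21.5, 28.5 and 39.7 CPM (1.38 ± 0.17, adjusted p = 1.61e-04), and Aldoc, an aldolase enriched in radial glia, at 150.01, 172 and 169 against 74.4, 79.7 and 99.6 CPM (0.95 ± 0.11, adjusted p = 1.40e-04). Each of these 4 genes was separated completely between the groups. The transcription factors Sox2 (0.77 ± 0.17), Pax6 (0.61 ± 0.13) and Sox9 (0.81 ± 0.14) and the radial glial proteins Nes (0.70 ± 0.11) and Fabp7 (0.86 ± 0.11) were also higher, outside the naming rule. The 2 lower genes, named after their values were seen, were Prom1, which codes for the apical membrane protein CD133 (-0.50 ± 0.11), and Ddah1, a dimethylarginine hydrolase (-0.53 ± 0.11). Prom1 lost its call when tested for a change beyond 1.2-fold (adjusted p = 0.0503).

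Basal progenitor genes were split, with 6 higher (26.1%, against 12.9% of all genes) and 6 lower (26.1%, against 11.6%) of 23 and a median of -0.05. Tac2, a neurokinin precursor, was at 11.5, 8.59 and 6.96 against 0.585, 0.646 and 0.387 CPM (4.05 ± 0.31, adjusted p = 8.91e-06), and Plcb1, a phospholipase C, at 203, 219 and 220.0 against 55.8, 71.3 and 71.6 CPM (1.69 ± 0.11, adjusted p = 1.82e-06). Sstr2, a somatostatin receptor of these cells, was lower, at 127, 123 and 129 against 174, 206 and 205 CPM (-0.63 ± 0.09, adjusted p = 5.14e-04). The summed level of the list was close in both groups, at 3358 to 3669 CPM and 3411 to 3563 CPM.

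Neurogenic transcription factors went both ways, with 4 (18.2%, against 12.9%) higher and 5 (22.7%, against 11.6%) lower of 22, at a median of -0.05. Neurog1, a proneural transcription factor (ENSMUSG00000048904.5, chromosome 13, 56250478 to 56252163), was at 3.88, 5.07 and 2.86 CPM with circSlc45a4 knocked down and at 21.2, 14.9 and 16.5 CPM with Slc45a4 mRNA knocked down. It was 4.50 times as high in the latter (-2.17 ± 0.21 SE, adjusted p = 3.05e-05), with scramble at 9.30, 11.7 and 15.6 CPM. Scrt1 and Scrt2 code for zinc finger repressors that act as neurons are born, and they went opposite ways. Scrt1 was lower, at 26.4, 28.8 and 29.8 against 73.3, 116 and 107 CPM (-1.80 ± 0.15, adjusted p = 1.40e-05), and Scrt2 higher, at 371, 367 and 338 against 167, 228 and 201 CPM (0.85 ± 0.11, adjusted p = 2.48e-04). The higher factors of this list include Ebf1 and Nhlh2, given with the Cajal-Retzius cells, and 3 factors were lower without circSlc45a4 knockdown replicate 1 or without Slc45a4 mRNA knockdown replicate 2.

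Notch signalling holds progenitors back from neurogenesis: ligands on 1 cell activate receptors on its neighbour, and the receptor then acts with RBPJ on Hes and Hey genes. Of 31 pathway genes 10 (32.3%, against 12.9% of all genes) were higher and 3 (9.68%, against 11.6%) lower with circSlc45a4 knocked down, at a median of 0.21. The lower genes were Dll3, Jag1 and the fringe gene Mfng. Dll3 was at 8.75, 7.14 and 8.65 against 22.3, 26.5 and 21.5 CPM (-1.51 ± 0.14, adjusted p = 2.71e-05) and Jag1 at 7.35, 6.38 and 10.2 against 31.4, 14.3 and 20.3 CPM (-1.46 ± 0.26, adjusted p = 0.00164), and Jag1 was highest in Slc45a4 mRNA knockdown replicate 1. Mfng, which modifies the receptors, was lower (-0.50 ± 0.10), whereas Lfng, of the same fringe family, was higher, at 21.6, 23.9 and 26.0 against 11.4, 9.99 and 14.2 CPM (1.005 ± 0.15, adjusted p = 4.86e-04). Among the receptors, Notch2 was at 147, 149 and 143 against 49.2, 44.3 and 64.3 CPM (1.48 ± 0.12, adjusted p = 1.45e-05) and Notch3 was higher by less (0.52 ± 0.12, adjusted p = 0.0613 for a change beyond 1.2-fold). The effector Hey1 was at 62.1, 61.1 and 52.8 against 33.3, 31.3 and 34.0 CPM (0.83 ± 0.10, adjusted p = 1.48e-04), and the feedback inhibitor Nrarp was higher as well (0.91 ± 0.17). The groups did not overlap for any of these 8 genes. Jag1, Mfng, Notch3 and Nrarp lie outside the naming rule of this list, and Notch3 is also a pericyte marker.

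**Figure D4:**
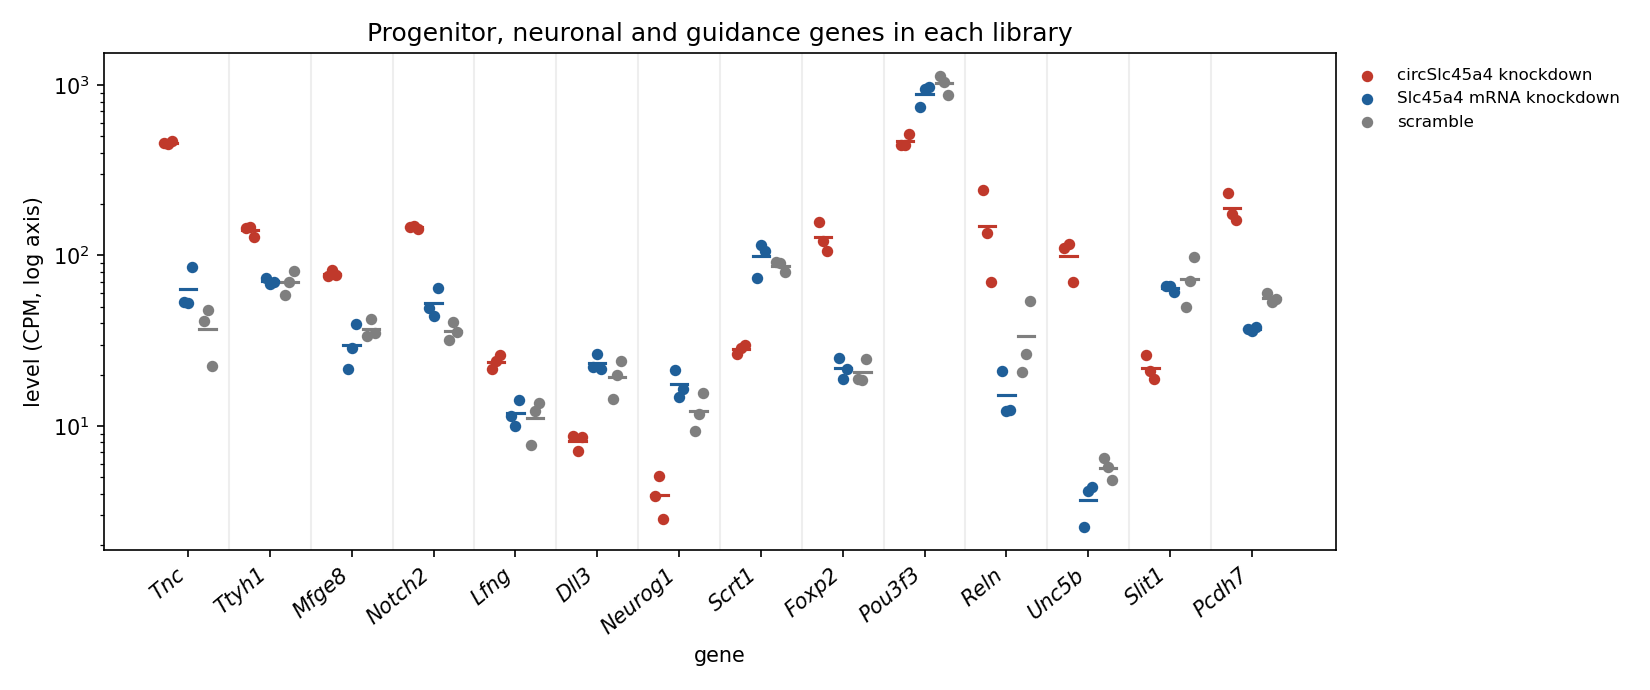
Levels (CPM, log axis) of 14 progenitor, neuronal and guidance genes, with 1 point per library and a bar at the mean of 3. Tnc, Ttyh1, Mfge8, Notch2, Lfng, Foxp2, Reln, Unc5b and Pcdh7 are higher in every circSlc45a4 knockdown library (red) than in any Slc45a4 mRNA knockdown library (blue), and Dll3, Neurog1, Scrt1, Pou3f3 and Slit1 are lower, with scramble in grey.

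Of 16 deep-layer neuron genes 6 (37.5%, against 12.9%) were higher and 3 (18.8%, against 11.6%) lower (median 0.44), and of 16 upper-layer genes 1 was higher and 6 (37.5%) were lower (median -0.26). The difference between these 2 lists was not tested. Foxp2, a transcription factor of deep-layer neurons, was at 158, 121 and 106 CPM with circSlc45a4 knocked down and at 24.999, 18.8 and 21.7 CPM with Slc45a4 mRNA knocked down, 5.89 times as high (2.56 ± 0.15 SE, adjusted p = 1.08e-06). Crym, a thyroid hormone binding protein, was at 4.05, 3.60 and 3.19 against 0.585, 0.3501 and 0.581 CPM (2.83 ± 0.31, adjusted p = 7.15e-05), and Tle4, a corepressor of corticothalamic neurons, at 74.2, 89.5 and 69.4 against 43.9, 34.7 and 35.5 CPM (1.03 ± 0.12, adjusted p = 1.45e-04). Ldb2, a LIM domain binding cofactor of subcerebral neurons, was lower, at 18.6, 21.9 and 23.7 against 44.6, 54.8 and 41.1 CPM (-1.13 ± 0.13, adjusted p = 1.28e-04). Each of these was separated between the groups, so the deep-layer list was not uniform. Among the upper-layer genes, Pou3f3, a POU factor that is among the most abundant lower genes, was at 444, 444 and 516 against 746, 949 and 979 CPM (-0.93 ± 0.12, adjusted p = 1.95e-04). Cux2, a homeodomain factor, was at 95.3, 63.1 and 100.5 against 138, 184 and 195 CPM (-0.996 ± 0.17, adjusted p = 0.00123). Both were apart between the groups, and without circSlc45a4 knockdown replicate 2 the count of lower upper-layer genes was 2, and with the Xist covariate it was 4. Limch1, an actomyosin regulator, was the higher gene, at 471, 470.1 and 456 against 248, 269.7 and 299 CPM (0.77 ± 0.09, adjusted p = 1.32e-04). The count of lower deep-layer genes was 1 without circSlc45a4 knockdown replicate 1 or 3 or Slc45a4 mRNA knockdown replicate 2.

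Among genes of the earliest neurons of the cortex, 22.2% of the subplate list and 40% of the Cajal-Retzius list were higher, against 12.9% of all genes. The medians were 0.32 and 0.16. The Cajal-Retzius list was split: of its 10 tested genes 5 had log2 fold changes above 0 and 5 below, and 1 (10%, against 11.6%) was called lower. Nxph4, a neurexophilin of subplate neurons, was at 43.1, 38.4 and 22.5 against 9.92, 11.7 and 10.8 CPM (1.68 ± 0.21, adjusted p = 1.69e-04), and Ccn2, a matricellular protein, at 8.64, 9.10 and 6.85 against 1.28, 2.24 and 3.32 CPM (1.84 ± 0.27, adjusted p = 4.66e-04), the only 2 of 9 subplate genes called. Reln, the extracellular signal reelin made by Cajal-Retzius cells, was at 243, 136 and 70.1 CPM with circSlc45a4 knocked down and at 21.1, 12.1 and 12.4 CPM with Slc45a4 mRNA knocked down (3.30 ± 0.37 SE, adjusted p = 9.66e-05). Its level spread widely among the circSlc45a4 libraries, highest in replicate 1 and lowest in replicate 3, which still stood above every Slc45a4 mRNA knockdown library. Nhlh2, a helix-loop-helix factor, was at 113, 74.3 and 43.3 against 25.4, 7.32 and 9.10 CPM (2.47 ± 0.41, adjusted p = 0.00116), Ebf1, an EBF family factor, at 24.6, 11.3 and 6.42 against 2.31, 0.458 and 0.415 CPM (3.74 ± 0.59, adjusted p = 7.97e-04), and Ndnf, a secreted factor, at 3.99, 2.84 and 3.19 against 1.59, 0.943 and 0.885 CPM (1.56 ± 0.29, adjusted p = 0.00225). In all 4 genes replicate 1 was the highest circSlc45a4 library and the groups did not overlap. They were the higher genes of 10 tested. Ebf3, a relative of Ebf1, was lower, at 3.32, 1.36 and 2.14 against 7.36, 4.93 and 6.22 CPM (-1.41 ± 0.28, adjusted p = 0.00325), and the marker genes Lhx1 and Lhx5 had between 1 and 21 counts in each of the 6 libraries. The 12 listed genes, tested or not, summed to 403, 237 and 138 CPM and 77.2, 39.2 and 43.2 CPM, most of it Reln and Nhlh2. The part that more Cajal-Retzius cells could have in this sum was not tested.

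Of 28 genes of newborn and migrating neurons 8 (28.6%, against 12.9%) were higher and 3 (10.7%, against 11.6%) lower (4 higher without circSlc45a4 knockdown replicate 1, and 1 lower without that replicate, its replicate 2 or Slc45a4 mRNA knockdown replicate 2). Unc5d, a receptor of multipolar migrating neurons, was at 365, 295 and 342 against 105, 155 and 177 CPM (1.196 ± 0.16, adjusted p = 2.71e-04), and Gap43, a growth cone protein, at 155, 160.5 and 129 against 84.8, 95.4 and 80.9 CPM (0.77 ± 0.11, adjusted p = 3.46e-04). Rnd3, a small GTPase of radial migration, was at 286, 256 and 238 against 185, 123 and 128 CPM (0.84 ± 0.14, adjusted p = 0.00132). The lower genes, named after their values were seen, were the semaphorin receptor genes Nrp1 (-0.44 ± 0.14) and Plxna4 (-0.50 ± 0.12) and the small GTPase gene Rnd2 (-0.40 ± 0.10). Nrp1 and Rnd2 lost their calls without circSlc45a4 knockdown replicate 1 or 2 or Slc45a4 mRNA knockdown replicate 2, and Nrp1 also without replicate 3 of the latter. Outside this list, Nsg2, a vesicle protein of neurons and one of the most abundant lower genes, was at 329, 367 and 444 against 846, 963 and 950.4 CPM (-1.27 ± 0.12, adjusted p = 2.43e-05).

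Receptors and ligands that steer axons held the clearest single difference. Unc5b, a netrin receptor (ENSMUSG00000020099.8, chromosome 10, 60762593 to 60831581), was at 110.1, 116 and 69.8 CPM with circSlc45a4 knocked down and at 2.54, 4.12 and 4.37 CPM with Slc45a4 mRNA knocked down. It was 26.8 times as high (4.74 ± 0.23 SE, adjusted p = 5.19e-07), and scramble, at 6.52, 5.71 and 4.82 CPM, stood near the Slc45a4 mRNA knockdown. Nrp2, a semaphorin coreceptor, was at 110.2, 83.9 and 71.2 against 41.6, 32.8 and 35.6 CPM (1.27 ± 0.15, adjusted p = 1.32e-04), and the ephrin receptor Epha4, one of the most abundant higher genes, at 689, 631 and 554 against 350.1, 335 and 379 CPM (0.82 ± 0.10, adjusted p = 1.76e-04). The ligand Slit1 was lower, at 25.9, 20.9 and 18.8 against 66.4, 65.9 and 60.9 CPM (-1.56 ± 0.12, adjusted p = 9.84e-06). None of these 4 overlapped. Of 58 guidance genes 14 (24.14%, against 12.9% of all genes) were higher and 9 (15.52%, against 11.6%) lower (median 0.13). The higher count was 8 without circSlc45a4 knockdown replicate 1 and 9 without Slc45a4 mRNA knockdown replicate 2.

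Genes of the matrix and of cell adhesion were higher more often than all genes were. Of 43 integrin and matrix genes 18 (41.9%, against 12.9%) were higher and 3 (6.98%, against 11.6%) lower. Of 30 cadherins and protocadherins 9 (30%) were higher and 1 (3.33%) lower. The integrin subunits Itgb1 and Itga9 were at 264, 264 and 249 against 138, 135 and 139.5 CPM (0.91 ± 0.08, adjusted p = 1.91e-05) and at 18.0, 15.6 and 10.7 against 2.01, 1.91 and 2.63 CPM (2.75 ± 0.24, adjusted p = 1.61e-05). Their ligand genes include Tnc, above. Cemip, a hyaluronan depolymerase, was at 286, 204 and 159 against 38.6, 16.8 and 16.3 CPM (3.18 ± 0.30, adjusted p = 2.98e-05). Pcdh7, a protocadherin, was at 233, 175 and 162 against 36.8, 36.0 and 38.3 CPM (2.36 ± 0.13, adjusted p = 8.36e-07), and Pcdh17 at 38.0, 40.6 and 36.5 against 16.7, 16.9 and 19.9 CPM (1.10 ± 0.11, adjusted p = 5.03e-05). All 5 were separated between the groups. The lower matrix genes, named after their values were seen, were Col9a3, Gpc2 and Tnr (-0.79 ± 0.23, -0.56 ± 0.12 and -0.53 ± 0.18). Col9a3 and Tnr overlapped between the groups, and 1 lower gene was left without circSlc45a4 knockdown replicate 1 or 2 or Slc45a4 mRNA knockdown replicate 3. The lower cadherin was Fat4 (-0.32 ± 0.09), which lost its call without any 1 of the same 3 libraries.

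Of 30 Wnt pathway genes 12 (40%, against 12.9% of all genes) were higher and 3 lower (median 0.23), and of 31 BMP, TGF-beta and Id genes 10 (32.3%) were higher and 1 lower (median 0.22). The secreted Wnt modulator Sfrp2 was at 74.5, 62.9 and 43.2 against 13.9, 13.8 and 15.6 CPM (2.06 ± 0.17, adjusted p = 1.53e-05), the receptor Fzd1 at 237, 218 and 171 against 115, 120.3 and 117 CPM (0.83 ± 0.11, adjusted p = 3.28e-04) and the nuclear effector Tcf7l2 at 9.27, 9.32 and 9.35 against 3.40, 1.99 and 3.18 CPM (1.71 ± 0.20, adjusted p = 1.32e-04). Nkd1, an inhibitor induced by the pathway, was lower, at 16.04, 17.9 and 20.6 against 39.2, 42.2 and 34.0 CPM (-1.08 ± 0.13, adjusted p = 1.28e-04). The other lower Wnt genes were Apc and Gsk3b (-0.33 ± 0.10 and -0.32 ± 0.10), and 1 lower gene was left without circSlc45a4 knockdown replicate 1 or 2 or Slc45a4 mRNA knockdown replicate 3. Chrd, chordin, an antagonist that binds BMPs, was at 58.5, 45.3 and 28.6 against 7.19, 11.8 and 12.4 CPM (2.07 ± 0.25, adjusted p = 1.43e-04), and the receptor Tgfbr1 at 222, 208 and 253 against 145, 150.03 and 159 CPM (0.59 ± 0.09, adjusted p = 9.52e-04). Ltbp2, a latent TGF-beta binding protein and the largest rise among the named genes, was at 8.49, 6.68 and 5.49 CPM against 0.0279, 0 and 0.221 CPM, with too few reads in the Slc45a4 mRNA knockdown for a fold. Id2, an inhibitor of helix-loop-helix factors, was the lower gene of that list (-0.76 ± 0.14, adjusted p = 0.00183). The receptor Fgfr3 of the FGF pathway was at 159.9, 139 and 107 against 57.8, 59.6 and 73.8 CPM (1.09 ± 0.14, adjusted p = 2.41e-04). Of 13 Hedgehog pathway genes 3 (23.1%, against 12.9%) were higher and 1 (7.69%, against 11.6%) lower (median -0.01). The FGF list was evenly divided: of 20 genes 4 (20%, against 12.9%) were higher and 4 (20%, against 11.6%) lower. Without circSlc45a4 knockdown replicate 1 the lower count was 0. Without its replicate 2 or 3 or Slc45a4 mRNA knockdown replicate 2 it was 2, and without the last of these the higher count was 2 too.

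Genes of the mature neuron had list medians near 0. Of 53 synaptic genes 12 (22.6%, against 12.9% of all genes) were higher and 8 (15.1%, against 11.6%) lower (median 0.01). When tested for a change beyond 1.2-fold, 9 synaptic genes were higher and 1 lower. Of 37 voltage-gated channels 7 (18.9%) were higher and 6 (16.2%) lower (median -0.02). Slc17a7, the vesicular glutamate transporter VGLUT1, was at 171, 123 and 84.6 against 27.8, 32.7 and 26.6 CPM (2.12 ± 0.20, adjusted p = 3.09e-05), and Syt11, a vesicle protein, at 382, 388 and 421 against 169, 203 and 245 CPM (0.95 ± 0.12, adjusted p = 2.11e-04). Nptx2, a neuronal pentraxin that clusters glutamate receptors, was lower, at 0.200, 0.354 and 0.112 against 3.09, 2.26 and 2.49 CPM (-3.59 ± 0.39, adjusted p = 8.30e-05). Both sodium channel Scn1a, at 15.1, 13.4 and 20.9 against 40.8, 40.2 and 38.3 CPM (-1.27 ± 0.15, adjusted p = 1.24e-04), and potassium channel Kcnq5, at 3.88, 3.13 and 5.67 against 10.8, 15.1 and 12.5 CPM (-1.59 ± 0.21, adjusted p = 2.91e-04), were lower, and the calcium channel Cacna1g was higher (17.6, 16.9 and 8.72 against 5.46, 4.69 and 4.09 CPM, 1.60 ± 0.25, adjusted p = 8.77e-04). The count of lower synaptic genes was 3, 13, 2 and 4 without circSlc45a4 knockdown replicate 1 or Slc45a4 mRNA knockdown replicate 1, 2 or 3, and 1 without circSlc45a4 knockdown replicate 2. That of higher channels was 4 without circSlc45a4 knockdown replicate 1.

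Of 35 ATF4 target and amino acid supply genes 10 (28.6%, against 11.6% of all genes) were lower and 1 (Phgdh) higher. The neutral amino acid transporters Slc7a5 and Slc1a5 were at 21.1, 22.1 and 24.9 against 35.6, 39.2 and 43.7 CPM (-0.80 ± 0.12, adjusted p = 4.59e-04) and 6.82, 9.70 and 6.58 against 19.3, 14.9 and 14.3 CPM (-1.08 ± 0.18, adjusted p = 0.00125). Asns, asparagine synthetase, was at 17.2, 18.4 and 15.9 against 30.2, 27.7 and 23.9 CPM (-0.67 ± 0.12, adjusted p = 0.00219). The higher gene, Phgdh, starts serine synthesis (0.44 ± 0.11, adjusted p = 0.013) and lost its call without circSlc45a4 knockdown replicate 2 (adjusted p = 0.0502). Of 24 unfolded protein response genes 7 (29.2%, against 12.9%) were higher, such as the disulfide isomerase Pdia6 (425, 378 and 334 against 248, 231 and 238 CPM, 0.67 ± 0.10, adjusted p = 5.73e-04). The sensor gene Atf6 was the lower one (-0.35 ± 0.12, adjusted p = 0.0496), named after its values were seen, and lost its call without circSlc45a4 knockdown replicate 1 or 2 or Slc45a4 mRNA knockdown replicate 2 or 3. The higher count was 3, 11 and 4 without circSlc45a4 knockdown replicate 1 or Slc45a4 mRNA knockdown replicate 1 or 3. Derl3, which works in degradation from the endoplasmic reticulum and had the largest fall of all named genes, is on none of these lists and was at 0.490, 0.164 and 0.736 against 9.002, 5.06 and 5.31 CPM (-3.74 ± 0.39, adjusted p = 5.59e-05). Of 22 hypoxia genes 5 (22.7%) were higher and 2 (9.09%) lower, at a median of 0.01, and the higher count was 2, 2 and 1 without circSlc45a4 knockdown replicate 1 or 2 or Slc45a4 mRNA knockdown replicate 3. The lower ones were Bnip3l, a mitophagy receptor, and Ndrg1, at 69.0, 74.96 and 82.5 against 180.5, 153 and 162 CPM (-1.13 ± 0.10, adjusted p = 1.91e-05) and 27.8, 36.8 and 31.9 against 64.5, 110.0 and 98.8 CPM (-1.504 ± 0.17, adjusted p = 1.14e-04). Eno1, the glycolytic enolase, was at 122, 106 and 87.9 against 346, 389 and 329 CPM (-1.75 ± 0.12, adjusted p = 3.90e-06), an uncertain value because Eno1b, a near-identical copy, shares its reads and differed alike (-1.79 ± 0.12).

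**Figure D5:**
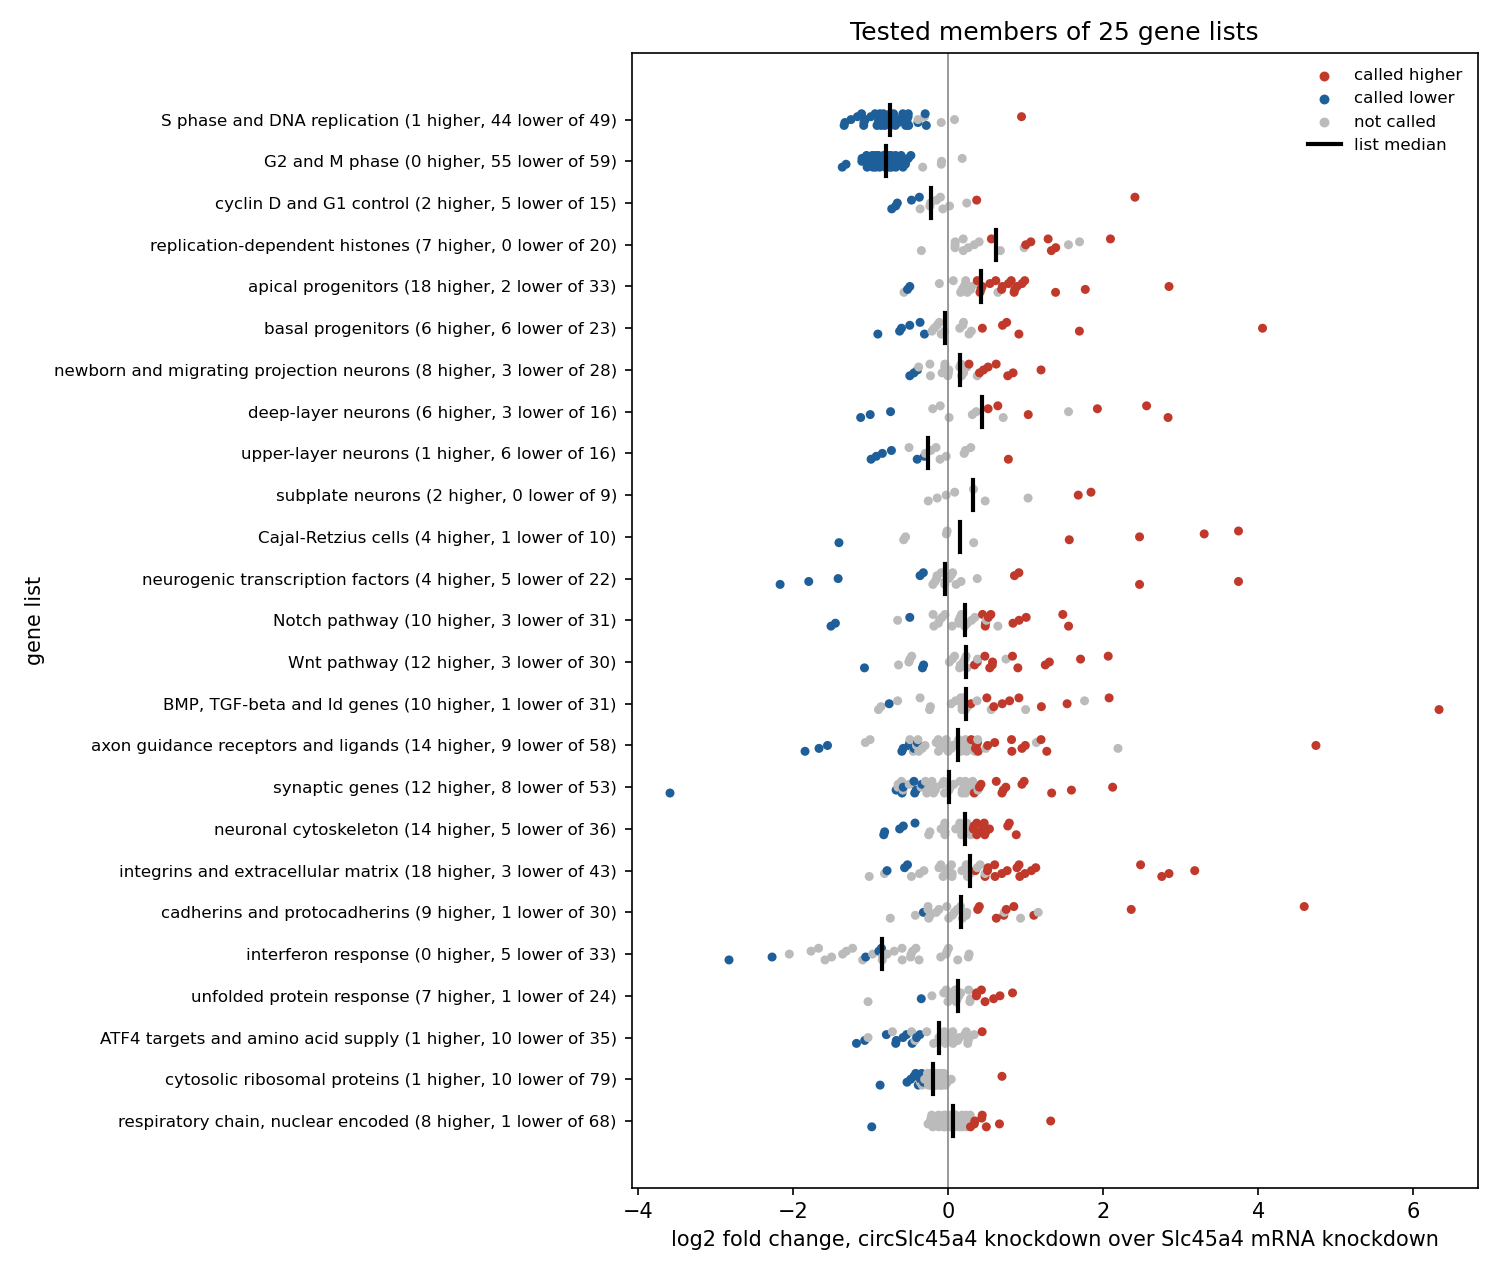
Log2 fold changes (circSlc45a4 knockdown over Slc45a4 mRNA knockdown) of all tested members of 25 gene lists, with 1 point per gene and a black bar at each list's median. Red points are called higher and blue points called lower, with the counts beside each list, and the S phase and the G2 and M phase lists lie almost wholly below 0.

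Interferon response genes had a median of -0.85, and 5 of 33 (15.2%, against 11.6% of all genes) were lower, a count that depended on the fit. That median lay within the spread of libraries, as the mean log2 CPM of the list had an SD of 0.91 within groups. The groups did not overlap for 6 of the 33 genes, against 40.9% of all genes. The 39 listed genes summed to 283, 207 and 223 against 349, 241 and 226 CPM, so the sums overlapped. None was higher in edgeR, limma-voom or DESeq2, with 2 at an unadjusted p under 0.05. Ifit2, an interferon-induced RNA binding protein, was at 5.32, 5.83 and 6.96 against 11.9, 12.7 and 9.10 CPM (-0.90 ± 0.18, adjusted p = 0.00335), and Cmpk2, an interferon-induced nucleotide kinase, at 4.92, 4.17 and 4.46 against 9.22, 9.05 and 6.44 CPM (-0.86 ± 0.19, adjusted p = 0.00604). Both were separated between the groups. The lower count was 16 without circSlc45a4 knockdown replicate 1, 2 without its replicate 2 and 3 without its replicate 3, and 3 and 8 without Slc45a4 mRNA knockdown replicate 1 and 3. It was 16 with the replicate block and 10 with the Xist covariate. Of 79 ribosomal protein genes 10 (12.7%, near the 11.6% of all genes) were lower and 1 higher, at a median of -0.20. Rpl29, the higher one, was at 277, 325 and 258 against 168, 197 and 168 CPM (0.69 ± 0.11, adjusted p = 7.24e-04), uncertain where processed pseudogenes share reads. Without circSlc45a4 knockdown replicate 1, 2 or 3 the lower count was 2, 18 or 4, and it was 18 with upper-quartile scaling.

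Genes of the neuronal cytoskeleton were higher in 14 (38.9%, against 12.9% of all genes) and lower in 5 (13.9%, against 11.6%) of 36 cases (median 0.21). Map6, which stabilises microtubules, was at 65.4, 62.9 and 55.2 against 27.2, 41.6 and 37.5 CPM (0.79 ± 0.14, adjusted p = 0.00179), and Dpysl4, a collapsin response mediator of growth cones, at 62.1, 53.4 and 42.5 against 22.9, 28.7 and 34.5 CPM (0.88 ± 0.16, adjusted p = 0.00212). Ank2, an ankyrin that ties membrane proteins to the cytoskeleton, was lower, at 177, 175 and 234 against 293, 356 and 394 CPM (-0.83 ± 0.13, adjusted p = 8.70e-04). The groups did not overlap for these 3 genes. The higher count was 8, 7 and 9 without circSlc45a4 knockdown replicate 1, 2 or 3, and the lower count was 3 without its replicate 1 or 2 or Slc45a4 mRNA knockdown replicate 3. Lipid synthesis was divided, with 5 genes higher (15.6%, against 12.9%) and 6 lower (18.8%, against 11.6%) of 32. Cyp51, a sterol demethylase of cholesterol synthesis, was higher, at 123, 136 and 147 against 80.9, 100.9 and 87.1 CPM (0.60 ± 0.10, adjusted p = 0.00163). Tm7sf2, a sterol reductase of the same pathway, was lower, at 5.03, 5.02 and 7.20 against 12.8, 16.9 and 14.3 CPM (-1.34 ± 0.18, adjusted p = 2.89e-04). The higher count was 3 without circSlc45a4 knockdown replicate 2 or 3 or Slc45a4 mRNA knockdown replicate 2 or 3, and the lower count was 2 without circSlc45a4 knockdown replicate 1 or 2 or Slc45a4 mRNA knockdown replicate 2.

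Proteins known to promote or limit back-splicing were read because 1 of the targets was circular. Of 18 such genes 4 (22.2%, against 12.9% of all genes) were higher and 3 (16.7%, against 11.6%) lower. Mbnl1, a muscleblind splicing factor, was at 35.1, 36.8 and 35.7 against 19.6, 17.3 and 23.4 CPM (0.84 ± 0.12, adjusted p = 4.94e-04), and Adarb1, an RNA editing enzyme, at 28.5, 27.8 and 26.1 against 15.2, 20.3 and 21.9 CPM (0.52 ± 0.14, adjusted p = 0.0153). Nono, a paraspeckle protein, was lower by a small margin, at 574, 596 and 629.8 against 793, 773 and 754 CPM (-0.37 ± 0.09, adjusted p = 0.00937). Each of the 3 was apart between the groups, and Adarb1 lost its call without circSlc45a4 knockdown replicate 1 or 2 (adjusted p = 0.0571 and 0.0535) and Nono without replicate 1 (adjusted p = 0.0517). Without circSlc45a4 knockdown replicate 1 the lower count was 0 and without its replicate 2 or Slc45a4 mRNA knockdown replicate 2 it was 1, while the higher count was 2 without circSlc45a4 knockdown replicate 2.

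Some of the largest and most abundant differences fell outside the lists described so far. Parm1, a mucin-like membrane protein, was at 16.3, 17.8 and 14.1 against 0.864, 0.862 and 1.11 CPM (4.08 ± 0.21, adjusted p = 7.27e-07). Stac2, an adaptor of voltage-gated calcium channels, was at 18.9, 17.8 and 16.2 against 1.28, 2.05 and 1.52 CPM (3.44 ± 0.19, adjusted p = 8.36e-07), and Cav1, caveolin 1, at 8.42, 12.3 and 4.84 against 0.585, 0.431 and 0.553 CPM (4.01 ± 0.42, adjusted p = 6.51e-05). The libraries of each group lay close together for Parm1 and Stac2 and less so for Cav1. Cacng5, an auxiliary subunit of glutamate receptors, was lower, at 5.84, 5.23 and 8.25 against 21.7, 23.4 and 29.8 CPM (-1.95 ± 0.18, adjusted p = 2.87e-05), as was Slc2a4, the insulin-regulated glucose transporter, at 2.81, 2.15 and 2.81 against 9.50, 9.61 and 8.27 CPM (-1.81 ± 0.19, adjusted p = 5.17e-05). Among abundant genes, the atypical cadherin Celsr2 was at 707, 583 and 570.4 against 313, 418 and 402 CPM (0.72 ± 0.12, adjusted p = 0.00149). The ubiquitin ligase Nedd4 went the other way, at 774, 747 and 759.9 against 1202, 1130 and 1183 CPM (-0.62 ± 0.09, adjusted p = 4.00e-04), and so did Ywhae, a 14-3-3 protein of neuronal migration, at 365, 395 and 407 against 786, 715 and 678 CPM (-0.90 ± 0.09, adjusted p = 5.59e-05). The largest rises and falls were chosen among genes whose groups did not overlap, as held for 40.9% of all genes, so their separation is no separate result. The abundant genes Celsr2, Nedd4 and Ywhae did not overlap either.

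A neighbour of the targeted gene also differed. Ago2, which codes for the slicing Argonaute of RNA interference, lies on the same chromosome as Slc45a4 (ENSMUSG00000036698.10, chromosome 15, 73095844 to 73184935). It was at 198, 169 and 155 CPM with circSlc45a4 knocked down and at 71.0, 72.9 and 84.9 CPM with Slc45a4 mRNA knocked down, 2.28 times as high (1.19 ± 0.11 SE, adjusted p = 2.71e-05), and scramble, at 55.9, 65.6 and 72.4 CPM, lay near the latter. Of 6 tested genes around the locus 2 (33.3%, against 12.9% of all genes) were higher and 0 lower. The other higher gene was Ptk2, the focal adhesion kinase (0.26 ± 0.08, adjusted p = 0.0425), and it lost the call when any 1 library was left out. Dennd3 (73512560 to 73572242), which lies between Ago2 and Slc45a4, was not called (-0.68 ± 0.31, adjusted p = 0.128). Of 12 small RNA machinery genes, a list that holds Ago2, 3 (25%, against 12.9% of all genes) were higher. Among them was Dicer1, which cuts small RNA precursors (175, 162 and 179 against 121, 108 and 131 CPM, 0.52 ± 0.09, adjusted p = 0.00209). Both knockdowns delivered hairpins, and the mixes differed in the number of hairpins. Polyamine genes, read because of the targeted gene's family, had 3 members higher (16.7%, against 12.9%) and 3 lower (16.7%, against 11.6%) of 18. Odc1, the first enzyme of polyamine synthesis, was at 433, 420.0 and 405 against 269, 329 and 298 CPM (0.49 ± 0.09, adjusted p = 0.00281), and the oxidase Paox at 3.05, 3.33 and 3.57 against 6.52, 6.30 and 6.42 CPM (-0.95 ± 0.18, adjusted p = 0.00231). The lower count was 1 without circSlc45a4 knockdown replicate 1 and 5 without Slc45a4 mRNA knockdown replicate 1.

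Of 16 microglia and macrophage genes 11 were tested and none was called by edgeR, limma-voom or DESeq2, with 3 higher and 0 lower at an unadjusted p under 0.05. All 16 summed to 15.1 to 20.7 CPM and 10.7 to 16.5 CPM, with Aif1, Trem2, P2ry12, Ptprc and Itgam too low to test. Of 13 endothelial genes 3 were tested, and Pecam1, Cldn5 and Cdh5 were too low to test. All 13 summed to 30.7 to 47.1 CPM and 21.98 to 28.9 CPM, nearly all of it the glucose transporter Slc2a1. Slc2a1 was higher (0.60 ± 0.16, adjusted p = 0.0151, but not called without circSlc45a4 knockdown replicate 1 or Slc45a4 mRNA knockdown replicate 3). Meningeal fibroblast genes (Col1a1, Col3a1, Dcn and Lum too low to test) and pericyte genes had 4 members each tested. The meningeal sums, 166, 129 and 119 CPM against 122, 114 and 115 CPM, came mostly from Cxcl12 and Foxp1, and none of the 4 was called by edgeR or limma-voom and 1 was higher by DESeq2, with 1 higher and 0 lower at an unadjusted p under 0.05. The higher pericyte genes were Pdgfrb (1.16 ± 0.25, adjusted p = 0.00543) and Notch3, and that list summed to 30.3 to 35.3 CPM and 21.5 to 26.4 CPM. Erythroid genes summed to 12.5, 26.1 and 8.99 CPM in the circSlc45a4 knockdown and 6.38 to 6.58 CPM in the Slc45a4 mRNA knockdown, and the 2 called genes, the near-identical copies Hba-a1 and Hba-a2, lost their calls without circSlc45a4 knockdown replicate 2 or Slc45a4 mRNA knockdown replicate 2 or 3. Of the choroid plexus and cortical hem genes, Rspo3, a Wnt agonist, was lower (-0.74 ± 0.17), and Ttr, Folr1 and Wnt3a were too low to test. The part of these cells in the differences above was not tested.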

How the data were processed

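The authors deposited 1 table of whole-number gene counts for 9 polyA RNA-seq libraries of sorted embryonic mouse cortical cells, 1 column per sample. The submitters' processing notes list STAR 2.4.2a, bcl2fastq 2.17.1.14, the build mm10 and DESeq2. For the counting program, its strand setting, the annotation and any filter, the sources used here give nothing. Reads of overlapping and antisense genes may therefore not be told apart.

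Symbols, positions and strands came from GENCODE M21 (GRCm38, the assembly of mm10), joined by gene ID without its version, with 53274 of 53379 IDs matched and 105 not. Positions count from 1. Genes were kept by edgeR's filterByExpr (minimum count 10), which left 17163 in the 6 libraries of both knockdowns. The main test was edgeR 4.0.16 (R 4.3.3), with TMM factors, 1 term per group, the quasi-likelihood F test with 4 residual degrees of freedom, and Benjamini-Hochberg adjustment over all genes tested at 0.05. The biological coefficient of variation was 14.5%. The SE of a log2 fold change was its size over the square root of F. CPM is the deposited count scaled by library size and TMM, also for scramble. Total counts were 35307378 to 45469298, and 21073174 to 31833779 in scramble.

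The text names Slc45a4, the 15 largest rises and falls among called genes with groups apart and an average log2 CPM of at least 1 (without predicted genes, and only some of them are described, and some genes the rule chose are not reported here), the 6 most abundant genes called in each direction with a change over 1.5-fold, and for each list up to 4 genes with the smallest p. Members outside this rule are marked as such or were chosen after their values were seen, which also holds for the S phase, G1, apical progenitor, Cajal-Retzius and other members given by their fold change alone. The 50 lists (1240 symbols, 64 of them in more than 1 list) and the comparison itself were chosen with earlier results of these data known. Lists are described by counts and medians, with no test of their own. Promoter windows are RefSeq's for GRCm38.p6, and letters were matched on both strands.

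Alternatives were all 9 libraries in the fit, RLE and upper-quartile factors, no filter, a filter of 1 CPM in 3 libraries, limma-voom (limma 3.58.1), DESeq2 1.42.0, the legacy quasi-likelihood test, a minimum change of 1.2-fold, a replicate block, a Xist covariate, chromosomes X and Y left out, thinning to the smallest library, and leaving out each library in turn. The fit was tested on simulated counts, where it missed part of the changed genes. The labels call the replicates biological without naming the embryos, so p-values measure the spread between these libraries.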

Additional observations from a re-analysis of the deposited data

How the results depend on the processing

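When tested for a change beyond 1.2-fold, 2050 genes passed, 1103 higher and 947 lower in the circSlc45a4 knockdown. Without 1 library in turn the counts were 2601 to 3944 genes, 1411 to 2120 higher and 1190 to 1824 lower, from models with 3 residual degrees of freedom. With upper-quartile factors 42.1% of the calls were higher. Of the 138 called genes described, none changed sign in any alternative, and 18 lost their call in the test for a change beyond 1.2-fold. Without circSlc45a4 knockdown replicate 1, 2 or 3, 14, 12 or 2 lost it, and without Slc45a4 mRNA knockdown replicate 1, 2 or 3 it was 1, 7 or 9. With the Xist level as a covariate 6 lost it, and in the other alternatives at most 2. The lower S phase and G2 and M phase counts were 39 to 44 and 46 to 55 without 1 library, and the higher apical progenitor count 14 to 20. The number of libraries limits small differences.

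With the replicate number as a block, 4348 genes were called, 2271 higher and 2077 lower, and none of the 138 genes lost its call. Libraries with the same number correlated at 0.0893, 0.081 and 0.128 in their deviations from the group means, which did not reach 0.1 in every pair, so the numbers were not taken as pairing, although each library correlated best with its own number.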
